A study of Mus musculus with 30 samples.

Results

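Genes that mark muscle being built or rebuilt were followed through fracture repair in mice in which Apex1 was deleted in limb mesenchyme. They were chosen by name, as regulators of the muscle lineage, proteins of muscle cell fusion and myosins of developing fibres, and they are 9 of the 55416 gene IDs counted. They are Pax7, Myf5, Myod1, Myog, Myf6, Mymk, Mymx, Myh3 and Myh8. The RNA came from 30 fracture calluses sequenced in bulk, and the members were compared between genotypes at each time point, between time points within a genotype, and with genes of mature muscle in the same tissue.

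The fractures were closed, non-stabilized fractures of the left tibia in mice aged 7 to 12 weeks, and the tissue is labelled fracture callus. The study's text speaks of tibiae cut around the fracture at 3-dpf and of whole calluses at 6-dpf, so time and the way of sampling cannot be told apart between these days. P-Apex1KO mice carried Prrx1-Cre and 2 conditional Apex1 alleles (Prrx1-Cre;Apex1 C/C), on B6 strains. Prrx1-Cre acts in limb bud mesenchyme, from which bone, cartilage and connective tissue of the limb derive, whereas limb muscle cells come from the somites. The WT group was made of littermates with Prrx1-Cre;Apex1 C/+, Apex1 C/C or Apex1 C/+ genotypes, so that some WT mice carried Cre with 1 conditional allele. At 3 days post fracture (3-dpf) there were 4 WT and 4 P-Apex1KO mice, at 6-dpf 5 and 3, at 10-dpf 4 and 3, and at 14-dpf 4 and 3. Both sexes were present in every group except P-Apex1KO at 14-dpf, where all 3 mice were female against 1 female and 3 male WT mice.

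Total counts ran from 18334389 to 43111491 per library, and the 3- and 6-dpf libraries (median 31943712) were deeper than the 10- and 14-dpf libraries (median 22570557) and carried another style of sample name, so 6- and 10-dpf were not tested against each other. Apex1 was lower in each P-Apex1KO library than in each WT library at 6-, 10- and 14-dpf. At 3-dpf it was not: the libraries labelled P-Apex1KO held 18.4, 29.0, 27.6 and 34.5 CPM (the count relative to the scaled library size) of Apex1 against 30, 26.4, 33.1 and 31.7 CPM in WT. Directions at 3-dpf therefore refer to the labels. The callus identity of the tissue was visible at 6-dpf, where the summed level of 7 cartilage genes was 28100 to 50928 CPM in WT and 1909 to 3649 CPM in P-Apex1KO.

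Muscle is repaired by satellite cells, stem cells that lie under the sheath of the fibre and are marked by the transcription factor Pax7. On injury they become myoblasts under Myf5 and Myod1, differentiate under Myog (myogenin), and fuse through the membrane proteins myomaker (Mymk) and myomixer (Mymx). New fibres make embryonic myosin heavy chain (Myh3) and perinatal myosin heavy chain (Myh8) before the adult chains replace them, while Myf6 (Mrf4) is also made by mature fibres. A closed fracture injures the muscle around the bone, and tissue taken with the callus can hold such muscle.

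The genes lie at separate places in the genome, apart from a pair of neighbours and a cluster (GRCm39, GENCODE M39). Pax7 is at chr4:139464373-139560839 on the minus strand, Myod1 at chr7:46025870-46028526 on the plus strand and Myog at chr1:134217707-134220287 on the plus strand. Myf5 (chr10:107318769-107321995) and Myf6 (chr10:107328712-107330656) are neighbours on the minus strand, 6716 bases apart. Mymk is at chr2:26951627-26962228 and Mymx at chr17:45911239-45913028, both on the minus strand. Myh3 (chr11:66969126-66993117) and Myh8 (chr11:67167746-67199462), both on the plus strand, belong to a cluster of sarcomeric myosin genes that also holds Myh1, Myh2, Myh4 and Myh13. Since these myosins are close in sequence and, by the study's methods, only uniquely mapped reads were counted, reads of stretches shared by the copies were lost, and the level of each myosin is uncertain to that extent. Mymk lies within Adamtsl2 on the other strand, and Myog, Mymx and Myh8 overlap non-coding genes on the other strand, which the strand-specific count separates. Myh3 shares 72 bases with the microRNA gene Mir6923 on its own strand.

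The myogenic regulatory factors bind the E-box, CANNTG on either strand. The 250 bases before the transcription start follow for a regulator of determination, the regulator of differentiation and the embryonic myosin, 5′ to 3′ on the gene's strand and with E-boxes in capitals, because these genes stand for successive steps of the pathway described here. The windows are chr7:46025620-46025869 (Myod1), chr1:134217457-134217706 (Myog) and chr11:66968876-66969125 (Myh3), all read from GRCm39.
Myod1: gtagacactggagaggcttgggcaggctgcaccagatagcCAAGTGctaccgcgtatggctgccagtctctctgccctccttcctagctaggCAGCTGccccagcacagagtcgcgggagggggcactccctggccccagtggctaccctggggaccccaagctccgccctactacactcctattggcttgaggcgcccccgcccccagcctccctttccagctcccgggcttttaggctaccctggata
Myog: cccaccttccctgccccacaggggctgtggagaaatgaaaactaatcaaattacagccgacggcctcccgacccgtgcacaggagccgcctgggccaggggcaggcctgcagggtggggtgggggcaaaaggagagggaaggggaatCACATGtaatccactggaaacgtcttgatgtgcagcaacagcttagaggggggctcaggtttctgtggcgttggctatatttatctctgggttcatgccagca
Myh3: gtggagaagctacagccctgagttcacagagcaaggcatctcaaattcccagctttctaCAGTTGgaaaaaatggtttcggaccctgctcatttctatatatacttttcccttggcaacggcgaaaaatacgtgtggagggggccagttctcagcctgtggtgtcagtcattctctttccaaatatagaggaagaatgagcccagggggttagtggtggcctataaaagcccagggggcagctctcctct
Myod1 has 2 E-boxes in this window, of which the one 158 bases before the start reads CAGCTG, Myog has 1 and Myh3 has 1. An E-box occurs in the windows of 7 of the 9 members and in 64.8% of 21770 protein-coding promoters of the same length, so its presence does not set the members apart. The windows of Myh8 and Mymx, both counted here and each with an E-box, reach into exons of other transcripts of the gene. CAGCTG occurs in 3 members (Pax7, Myod1 and Mymx) and in 11.9% of the promoters. No binding was measured here, and a match is only a description of the letters.

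The members were present at levels that differed by orders of magnitude, and most were highest at the earliest time point. Per kilobase of exon, WT 3-dpf calluses held 26.2 ± 9.7 CPM per kb of Myog (SD, n = 4), 11.5 ± 3.5 of Myod1, 11.4 ± 2.1 of Myf6, 7.77 ± 4.33 of Myh3, 7.07 ± 2.95 of Mymk and 2.38 ± 0.94 of Mymx. Myf5 (0.607 ± 0.279), Pax7 (0.457 ± 0.149) and Myh8 (0.418 ± 0.230) were lowest. Myod1 and Myf6 overlapped in range, as did Myh3 and Mymk, and so did the lowest 3. By 14-dpf the order in WT had changed: Myf6 (2.26 ± 1.03 CPM per kb, n = 4) stood first, followed by Myod1 (1.36 ± 0.72) and then Myog (0.847 ± 0.426), with overlapping ranges, and Mymx (0.0070 ± 0.0140) last. Myf6 was also first in P-Apex1KO at 6-, 10- and 14-dpf, at 21.0 ± 4.9, 6.10 ± 2.16 and 8.01 ± 4.47 CPM per kb (n = 3 each).

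**Figure D1:**
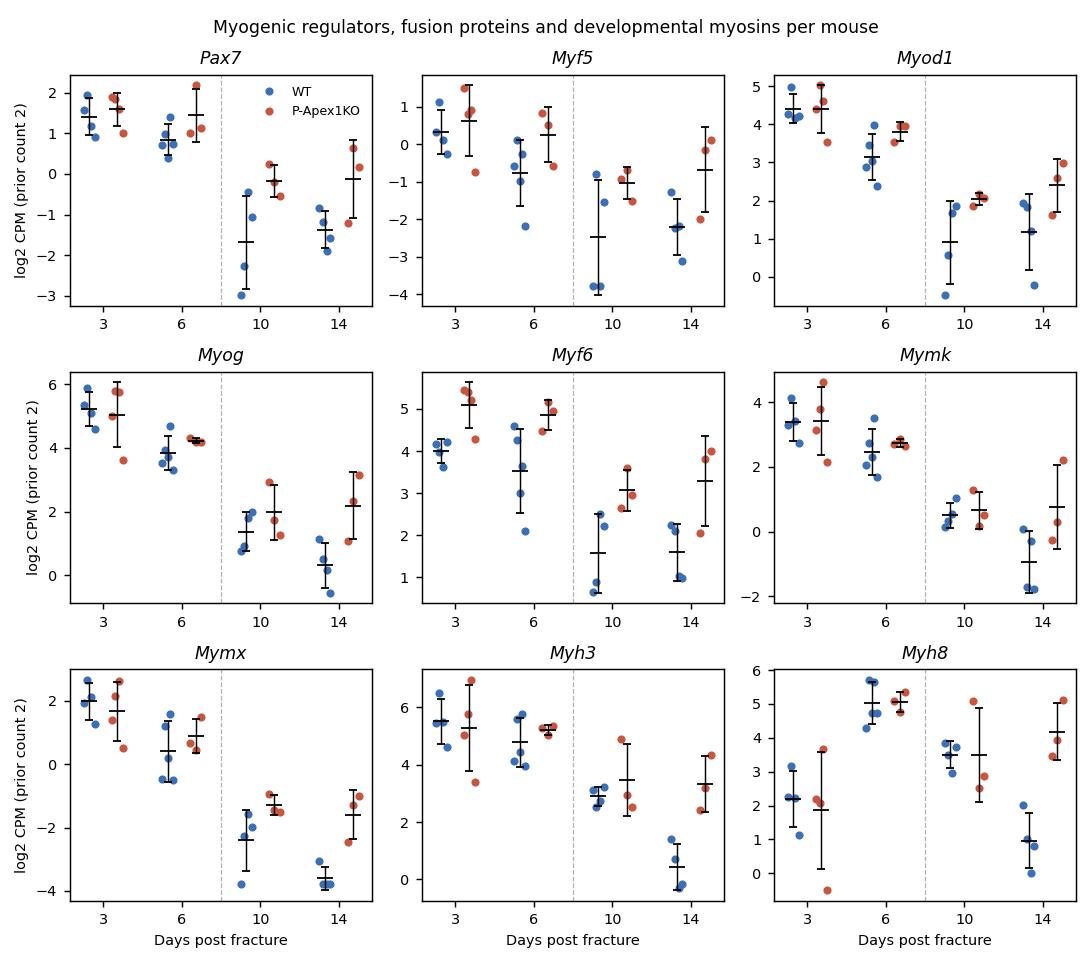
Level of each member per mouse (log2 CPM with a prior count of 2, vertical axis) against days post fracture, WT in blue and P-Apex1KO in red, with group mean and SD. Every member but Myh8 has its highest group mean at 3-dpf, while Myh8 is highest at 6-dpf; the dashed line separates the 2 sets of libraries that were not tested against each other.

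From 3- to 6-dpf in WT the regulators Myod1 and Myog and the fusion gene Mymx fell, while the perinatal myosin Myh8 rose. With edgeR's quasi-likelihood test and Benjamini-Hochberg adjustment, 4 of the 9 members passed an adjusted p of 0.05, against 30.5% of the 20468 genes tested. Myog fell from 41.0, 59.0, 34.5 and 24.2 CPM in the 4 WT mice at 3-dpf to 11.3, 15.3, 13.2, 25.7 and 9.9 CPM in the 5 at 6-dpf. The ranges touch only through the lowest mouse at 3-dpf and the highest at 6-dpf, and the log2 fold change was -1.42 ± 0.40 (SE, adjusted p = 0.0164). Myod1 fell from 19.1, 31.6, 17.8 and 18.6 CPM to 7.31, 11.0, 8.19, 15.7 and 5.17 CPM, with no overlap (log2 fold change -1.26 ± 0.32, adjusted p = 0.00792). Mymx fell from 2.32 to 6.27 CPM down to 0.633 to 2.96 CPM (log2 fold change -1.50 ± 0.52, adjusted p = 0.0417). The Myog call was lost without WT 3-dpf replicate 2 or WT 6-dpf replicate 5 (adjusted p = 0.0600 and 0.0504), and the Mymx call without any 1 of 9 mice, namely WT 3-dpf replicates 1, 2 and 3, WT 6-dpf replicates 1, 3 and 5, P-Apex1KO 3-dpf replicate 2 and P-Apex1KO 6-dpf replicates 1 and 2 (adjusted p up to 0.121). Genes of other cell types moved over the same days. All 7 cartilage genes, 5 of 6 endothelial, 5 of 6 osteoblast and 1 of 5 smooth muscle genes passed as higher. All 7 macrophage genes and 1 of 6 nerve and Schwann cell genes passed as lower. Their part in the members' values was not tested. In these bulk tissues fewer cells of a type and less RNA per cell cannot be told apart.

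The other members had fitted values below 0 in WT and did not pass the test. Mymk, the partner of Mymx in fusion, stood at 6.55 to 17.5 CPM at 3-dpf and 3.16 to 11.3 CPM at 6-dpf (log2 fold change -0.89 ± 0.46, adjusted p = 0.169), and it passed without WT 6-dpf replicate 4 (log2 fold change -1.26, adjusted p = 0.0446). Myf5 had a log2 fold change of -1.12 ± 0.51 (adjusted p = 0.112) and Pax7 one of -0.64 ± 0.30 (adjusted p = 0.120). Myh3 was at 43.4, 91.2, 44.8 and 24.5 CPM at 3-dpf and 17.5, 48.4, 21.5, 54.4 and 15.5 CPM at 6-dpf, a wide overlap (log2 fold change -0.64 ± 0.61, adjusted p = 0.473). Myf6 was at 12.2 to 18.6 CPM at 3-dpf and 4.24 to 23.9 CPM at 6-dpf (adjusted p = 0.691).

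Myh8 moved in the opposite direction. It was at 4.71, 8.87, 4.62 and 2.11 CPM in WT at 3-dpf and at 19.6, 52.3, 26.7, 50.2 and 26.5 CPM at 6-dpf. Every 6-dpf mouse lay above every 3-dpf mouse, and the log2 fold change was 2.82 ± 0.62 (adjusted p = 0.00388). It held with each mouse left out in turn.

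In P-Apex1KO, Myh8 was the 1 member of 9 that passed from 3- to 6-dpf, where 14.0% of the genes tested did. It was at 4.51, 4.12, 12.7 and 0.636 CPM at 3-dpf and at 34.1, 26.8 and 40.5 CPM at 6-dpf, again with no overlap (log2 fold change 2.68 ± 0.66, adjusted p = 0.0169). Without P-Apex1KO 3-dpf replicate 2 or 6-dpf replicate 2 the adjusted p was 0.0512 and 0.0518. Over the same days 6 of 7 cartilage, 1 of 6 osteoblast, 2 of 5 smooth muscle and 1 of 6 nerve and Schwann cell genes passed as higher. As lower, 3 of 7 macrophage genes passed, and 0 of 6 endothelial genes passed either way. Myog was at 32.1, 55.4, 54.1 and 12.3 CPM at 3-dpf and 19.8, 18.1 and 18.2 CPM at 6-dpf (log2 fold change -1.03 ± 0.47, adjusted p = 0.165), and it passed without P-Apex1KO 3-dpf replicate 4, the mouse with the least Myog (log2 fold change -1.33, adjusted p = 0.0344). Myod1 had a log2 fold change of -0.66 ± 0.36 (adjusted p = 0.255). Pax7, Myf5, Myf6, Mymk, Mymx and Myh3 had adjusted p from 0.288 to 0.905. The change between the genotypes was tested directly: 0 of 9 members differed in their 3- to 6-dpf course (1.3% of all genes did; adjusted p from 0.691 to 0.997), none had an unadjusted p under 0.05, and DESeq2 called 0. Passing in WT and not in P-Apex1KO, as for Myog, Myod1 and Mymx, therefore does not show a difference between genotypes.

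**Figure D2:**
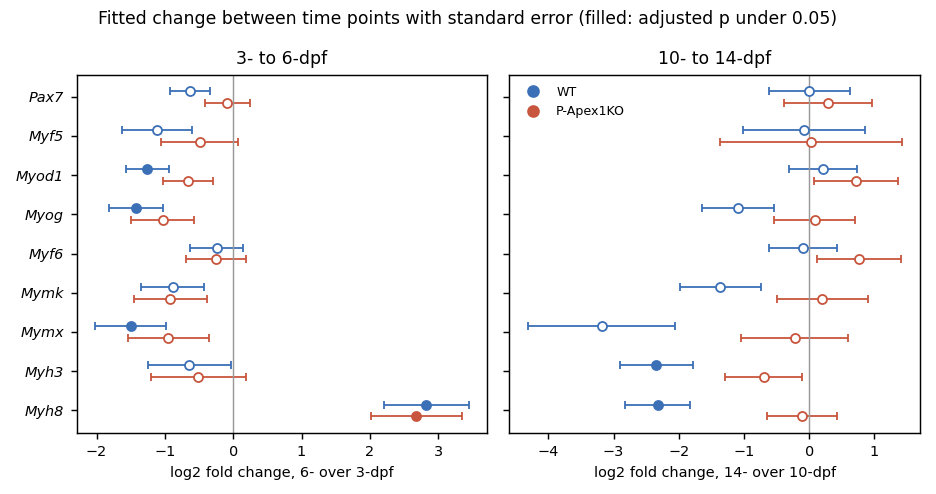
Fitted log2 fold change with standard error (horizontal axis) of each member from 3- to 6-dpf (left) and from 10- to 14-dpf (right), WT in blue and P-Apex1KO in red, with filled points for an adjusted p under 0.05. Myh8 lies at 2.82 (WT) and 2.68 (P-Apex1KO) on the left, where the other 8 members lie below 0 in both genotypes, and Myh3 and Myh8 lie at -2.34 and -2.33 in WT on the right.

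The balance of the developmental myosins changed over the same days. Per kilobase, Myh8 was 0.0533 ± 0.0051 of the Myh3 level in WT at 3-dpf (SD, n = 4), 0.655 ± 0.161 at 6-dpf (n = 5), 0.843 ± 0.193 at 10-dpf (n = 4) and 0.813 ± 0.191 at 14-dpf (n = 4). In P-Apex1KO the ratio was 0.0505 ± 0.0178 (n = 4), 0.485 ± 0.048, 0.570 ± 0.153 and 0.989 ± 0.120 (n = 3 each). All 3-dpf mice, from 0.0331 to 0.0735, lay below all later mice, the lowest of which stood at 0.397. The ratio was computed after its parts had been seen, so it is given without a test.

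Against all 8 sarcomeric myosin heavy chains per kilobase, the developmental pair was a small part. Myh3 and Myh8 together made up 4.17, 9.21, 5.80 and 2.38% in WT at 3-dpf and 1.16, 4.41, 5.51 and 0.890% in P-Apex1KO. At 6-dpf they made up 1.81, 7.02, 2.96, 11.1 and 3.65% in WT and 3.10, 1.06 and 2.44% in P-Apex1KO. At 10-dpf the share was 3.73, 2.78, 1.47 and 1.51% in WT and 1.76, 1.17 and 0.528% in P-Apex1KO. At 14-dpf the share was 0.360, 0.619, 0.278 and 0.461% in WT and 0.899, 0.527 and 0.975% in P-Apex1KO. Genotypes overlapped at each of the 4 time points. The rest was mainly Myh4, the chain of the fastest adult fibres, at 44.7 to 79.5% over all 30 mice, and Myh1, so adult muscle was present in every library.

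**Figure D3:**
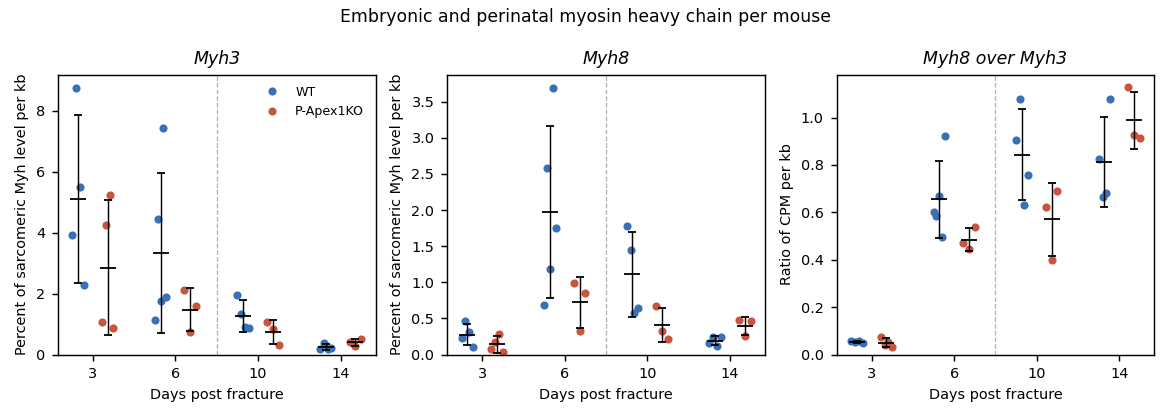
Myh3 (left) and Myh8 (middle) as percent of the summed level per kb of 8 sarcomeric myosin heavy chains, and the ratio of Myh8 to Myh3 per kb (right), for each mouse against days post fracture, WT in blue and P-Apex1KO in red, with mean and SD. The ratio is 0.0331 to 0.0735 at 3-dpf and at least 0.397 in each later mouse.

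Between 10- and 14-dpf the developmental myosins fell in WT. Of 9 members tested, 2 passed, against 11.1% of all genes. Myh3 fell from 8.52, 5.62, 6.58 and 9.37 CPM to 2.58, 1.58, 0.742 and 0.830 CPM, and every 14-dpf mouse was below every 10-dpf mouse (log2 fold change -2.34 ± 0.56, adjusted p = 0.0218). Myh8 fell from 14.3, 11.2, 7.69 and 13.2 CPM to 3.94, 1.95, 0.940 and 1.66 CPM, also with no overlap (log2 fold change -2.33 ± 0.50, adjusted p = 0.0133). The Myh8 call held without each mouse in turn, and the Myh3 call was lost without WT 10-dpf replicate 3 or 4 or WT 14-dpf replicate 1, 3 or 4 (adjusted p from 0.0523 to 0.0654). Mymk was at 1.02 to 1.97 CPM at 10-dpf and 0.218 to 0.973 CPM at 14-dpf, which do not overlap (log2 fold change -1.36 ± 0.62, adjusted p = 0.192). Mymx gave 13 counts over the 4 WT libraries at 10-dpf and 1 count at 14-dpf, a ratio of 13.0 (exact 95% interval 1.95 to 552, counting error only), and it did not pass (adjusted p = 0.0901 by edgeR's quasi-likelihood test). Myog (adjusted p = 0.249) and Pax7, Myf5, Myod1 and Myf6 (0.845 to 0.999) did not pass either. Among other cell types, 6 of 7 cartilage and 3 of 5 smooth muscle genes passed as lower in this course. As higher, 2 of 7 macrophage, 1 of 6 endothelial and 1 of 5 nerve and Schwann cell genes passed. Of 6 osteoblast genes 0 passed. The part of these changes in the members' values was not tested.

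In P-Apex1KO 0 of 9 members passed from 10- to 14-dpf, where 0.259% of all genes did; none had an unadjusted p under 0.05 and DESeq2 called 0. Myh8 was at 34.0, 5.66 and 7.31 CPM at 10-dpf and 11.0, 15.3 and 34.6 CPM at 14-dpf (log2 fold change -0.11 ± 0.53, adjusted p = 0.951). Myh3 was at 29.4, 7.69 and 5.71 CPM and then 5.27, 8.94 and 20.4 CPM (log2 fold change -0.70 ± 0.59, adjusted p = 0.642). A single mouse at each time, replicate 1 at 10-dpf and replicate 3 at 14-dpf, held the highest value of both, and without replicate 1 at 10-dpf the log2 fold changes were 0.96 for Myh8 and 0.43 for Myh3. The other 7 members had adjusted p from 0.636 to 0.997. The difference between genotypes in this course did not pass for any of the 9 members (0.436% of all genes did, and DESeq2 called 0 members). Myh8 was the 1 member with an unadjusted p under 0.05, with a difference of 2.22 ± 0.74 on the log2 scale and an adjusted p of 0.239, and the other 8 had adjusted p from 0.403 to 0.985.

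At each time point the genotypes were then compared. At 3-dpf 0 of 9 members passed, as did 0.0% of the 19866 genes tested (1216 genes, and 1 member, had an unadjusted p under 0.05; DESeq2 called 85 genes and 1 member). That member was Myf6, at 43.4, 42.4, 36.8 and 19.5 CPM in the libraries labelled P-Apex1KO and 18, 15.7, 12.2 and 18.6 CPM in WT. The lowest P-Apex1KO mouse stood just above the highest WT mouse, and the log2 fold change was 1.10 ± 0.26 (adjusted p = 0.768 by edgeR and 0.0154 by DESeq2). Without P-Apex1KO replicate 4, in which Apex1 was highest, it passed edgeR's test (log2 fold change 1.30, adjusted p = 0.0188). For Pax7, Myf5, Myod1, Myog, Mymk, Mymx, Myh3 and Myh8 the genotypes overlapped (adjusted p from 0.899 to 0.998). Replicate 4 held the least of each of the 9 members among the libraries labelled P-Apex1KO.

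At 6-dpf 0 of 9 members passed, against 10.9% of all genes; 1 member had an unadjusted p under 0.05 and DESeq2 called 0. Myod1, the lowest of them in p, was at 11.5, 15.5 and 15.3 CPM in P-Apex1KO and 5.17 to 15.7 CPM in WT (log2 fold change 0.46 ± 0.19, adjusted p = 0.153). Myf6 was at 22.1, 35.9 and 31.1 CPM in P-Apex1KO and 23.9, 19.2, 8.0, 12.5 and 4.24 CPM in WT (log2 fold change 1.01 ± 0.47, adjusted p = 0.218). It passed without WT replicate 1, the WT mouse with the most Myf6 (log2 fold change 1.41, adjusted p = 0.0120). Myf5 (log2 fold change 1.05 ± 0.51) and Pax7 (0.53 ± 0.29) did not pass, with adjusted p of 0.232 and 0.288. Myog was at 19.8, 18.1 and 18.2 CPM in P-Apex1KO, inside the WT range of 9.90 to 25.7 CPM, and Mymk, Mymx, Myh3 and Myh8 likewise lay inside the WT range (adjusted p of these 5 from 0.476 to 0.880).

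At 10-dpf Myf6 was higher than in WT, the 1 member called of 8 tested, against 6.46% of all genes. Its fitted difference was similar at 3-, 6- and 14-dpf (log2 fold change 1.10, 1.01 and 1.31), where it did not pass. At 10-dpf it was at 6.16, 12 and 7.68 CPM in P-Apex1KO and 1.51, 1.78, 5.65 and 4.57 CPM in WT, with no overlap (log2 fold change 1.31 ± 0.25, adjusted p = 0.0262). The order held within each sex, since the single P-Apex1KO female (6.16 CPM) lay above both WT females (1.51 and 1.78 CPM) and both P-Apex1KO males (12 and 7.68 CPM) above both WT males (5.65 and 4.57 CPM). The call was lost without P-Apex1KO replicate 1 or 2 or WT replicate 1 or 2 (adjusted p from 0.0605 to 0.175), and without the sex term the adjusted p was 0.132. It was also lost with a block on the replicate number in place of the sex term, and with all samples in 1 model. Myod1 was at 3.59, 4.48 and 4.12 CPM against 0.647, 1.42, 3.11 and 3.54 CPM in WT, also with no overlap but without passing (log2 fold change 0.90 ± 0.33, adjusted p = 0.146). Pax7 was at 1.11, 0.802 and 0.609 CPM against 0.0539, 0.137, 0.667 and 0.403 CPM (log2 fold change 1.39 ± 0.60, adjusted p = 0.200), which rests on 1 to 15 counts in each WT library. Myf5, Myog, Mymk, Myh3 and Myh8 overlapped between the genotypes (adjusted p from 0.397 to 0.798). Mymx, with 0 to 9 counts, did not pass the count filter and was not tested here.

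At 14-dpf all 9 fitted values lay above 0, with a median log2 fold change of 1.31 against 0.04 over all genes. Of 34 adult muscle genes 32 lay above 0 as well (median 0.88). The members also varied together between mice, so these 9 values are not separate observations. With the sex term none of the 9 members passed, against 11.3% of all genes. By edgeR 2 members had an unadjusted p under 0.05, and DESeq2 called the same 2, Myh3 and Myh8. Myh8 was at 11.0, 15.3 and 34.6 CPM in P-Apex1KO and 3.94, 1.95, 0.940 and 1.66 CPM in WT, and every P-Apex1KO mouse was above every WT mouse (log2 fold change 2.39 ± 0.75, adjusted p = 0.0894). Myh3 was at 5.27, 8.94 and 20.4 CPM against 2.58, 1.58, 0.742 and 0.830 CPM, again without overlap (log2 fold change 2.19 ± 0.84, adjusted p = 0.15). The only female WT mouse, replicate 1, held the most of both among WT mice. Against that mouse alone the 3 P-Apex1KO females were all higher in both. The same WT mouse stood apart in adult muscle. Its mature muscle score (mean log2 CPM of 34 adult muscle genes) was 6.49, against 4.90, 4.81 and 4.78 in WT replicates 2, 3 and 4. P-Apex1KO replicates 1, 2 and 3 had scores of 6.00, 7.53 and 7.72. Mymx gave 3, 7 and 9 counts in P-Apex1KO and 1, 0, 0 and 0 counts in WT, a ratio of 23.3 of the summed counts after scaling (exact 95% interval 3.70 to 968, counting error only). The fitted log2 fold change, which takes in the spread between mice and sex, was smaller and did not pass (2.44 ± 1.5, adjusted p = 0.351). In the 3 WT libraries with no count, the level was below the 0.131 to 0.148 CPM that 3 counts would give.

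Myog (2.02, 5.00 and 8.89 CPM against 2.14, 1.35, 1.04 and 0.612 CPM) and Myf6 (4.12, 13.9 and 15.9 CPM against 4.67, 4.22, 1.98 and 1.92 CPM) overlapped between the genotypes at 14-dpf through P-Apex1KO replicate 1. Their log2 fold changes were 1.33 ± 0.81 (adjusted p = 0.335) and 1.31 ± 0.82 (adjusted p = 0.350), and that of Pax7 was 0.99 ± 0.82 (adjusted p = 0.474). Myod1, Mymk and Myf5 overlapped as well (adjusted p from 0.548 to 0.667). The calls at this time point depended on the sex term. Without the sex term 5 of the 7 members then tested passed, against 37.2% of all genes, namely Myh8 (log2 fold change 3.3, adjusted p = 0.00355), Myh3 (3.05, 0.00585), Myog (2.09, 0.0207), Myf6 (1.87, 0.0268) and Pax7 (1.56, 0.0471). As 1 WT mouse carries the comparison within females, sex and genotype are close to inseparable here. Without P-Apex1KO replicate 1 both Myh8 and Myh3 passed with the sex term (adjusted p = 0.0363 and 0.0470), and without replicate 3 Myh8 did (0.0427).

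**Figure D4:**
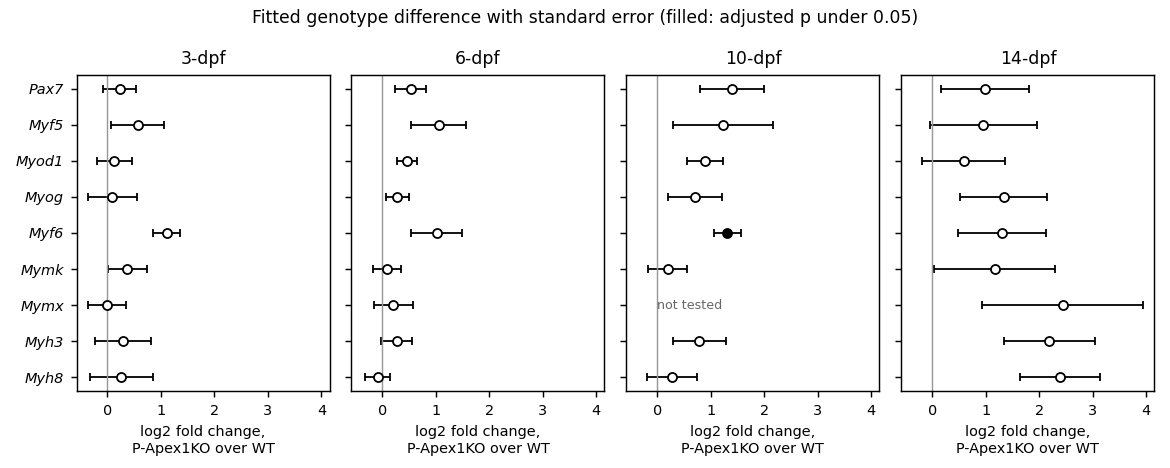
Fitted log2 fold change of P-Apex1KO over WT with standard error (horizontal axis) for each member at each time point, filled where the adjusted p is under 0.05. Myf6 lies between 1.01 and 1.31 at all 4 time points, and Myh3 and Myh8 lie at 2.19 and 2.39 at 14-dpf.

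The members were set beside 34 genes of mature skeletal muscle, the contractile and metabolic genes of the adult fibre, counted in the same libraries. At 6-dpf 26 of these 34 passed the test and were higher in P-Apex1KO (median log2 fold change over the list 1.37), while the median over the 9 members was 0.28 and over all genes 0.01. At 3-, 10- and 14-dpf 0 of the 34 passed, with medians of 0.94, 1.39 and 0.88, against 0.26, 0.84 and 1.31 for the members. By edgeR 23, 24 and 2 of the 34 had an unadjusted p under 0.05 there, and DESeq2 called 10, 9 and 3. A mature muscle score, the mean log2 CPM of the 34 genes, was 6.19 ± 0.24 in WT (SD, n = 4) and 6.89 ± 0.67 in P-Apex1KO (n = 4) at 3-dpf, 6.31 ± 0.24 (n = 5) and 7.51 ± 0.71 (n = 3) at 6-dpf, 5.52 ± 0.65 (n = 4) and 6.73 ± 0.69 (n = 3) at 10-dpf, and 5.24 ± 0.83 (n = 4) and 7.08 ± 0.94 (n = 3) at 14-dpf. The mean score was higher in P-Apex1KO at each time, and at 6-dpf the ranges did not overlap (6.02 to 6.63 against 6.94 to 8.31).

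With this score as a covariate the members' genotype differences moved. At 3-dpf 1 of 9 fitted values lay above 0 instead of 8, and their median went from 0.26 to -0.64. At 10-dpf 4 of 8 lay above 0 instead of 8, and the median went from 0.84 to 0.08. At 14-dpf it went from 1.31 to 0.37, with Myh8 at 1.81 and Myh3 at 1.43, and Myf6 at 10-dpf went from 1.31 to 1.17 (adjusted p = 0.256). At 6-dpf the median went the other way, from 0.28 to 0.67. The genotypes shared no range of scores there, so this value rests on extending the fit between them. With the covariate no member passed between genotypes at any time point, but few genes of any kind did at the first 3: 0 at 3-dpf, 1 of 20260 at 6-dpf and 17 of 18910 at 10-dpf, against 2316 of 20228 at 14-dpf. The part of the amount of adult muscle in the members' differences was not tested beyond this. In time, the same 4 members and Pax7 passed with the covariate from 3- to 6-dpf in WT, where 30.7% of all genes did. Myh8 passed in P-Apex1KO (9.71% of all genes), and Myh3 and Myh8 from 10- to 14-dpf in WT (13.0%).

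**Figure D5:**
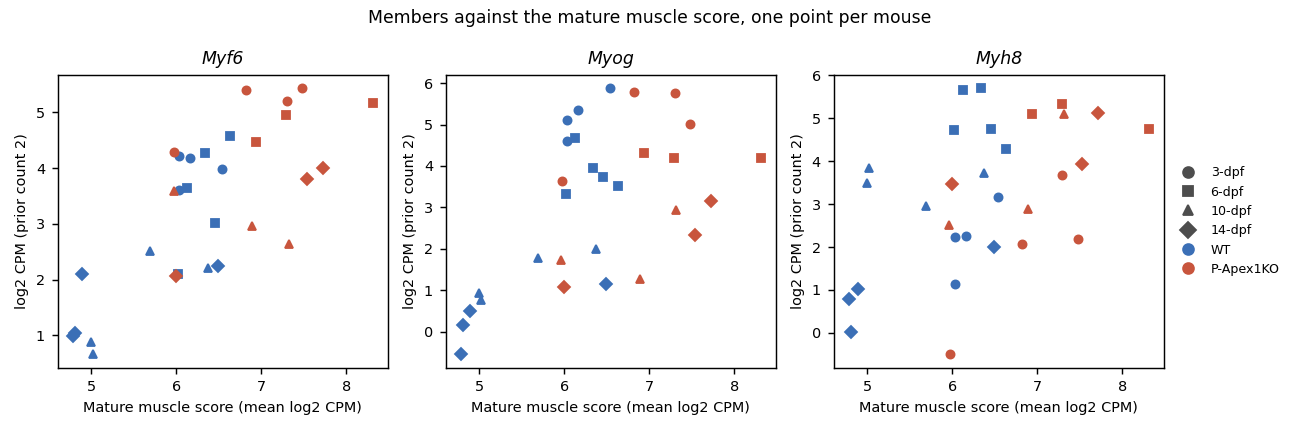
Level of Myf6, Myog and Myh8 (log2 CPM with a prior count of 2, vertical axis) against the mature muscle score (mean log2 CPM of 34 genes, horizontal axis), 1 point per mouse, coloured by genotype and shaped by day. Pearson's r over 30 mice is 0.75 for Myf6, 0.58 for Myog and 0.51 for Myh8, and with group means removed it is 0.59, 0.67 and 0.56.

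Across the 30 mice Myog, Myod1 and the fusion genes varied together and Myh8 varied with them least. Pearson's r of log2 CPM was 0.98 between Myog and Mymx, 0.97 between Myog and Mymk and 0.94 between Myog and Myod1, and stayed at 0.80, 0.85 and 0.78 after the mean of each group was removed. Myh8 correlated little with Myog (r = 0.28) or Myod1 (0.13) and more with Myh3 (0.53), but once group means were removed it followed Myh3 (0.95) and Myog (0.77). Within a group, then, mice with much Myh3 also had much Myh8. These correlations are descriptions, since the 30 points share time, genotype, set of libraries and the amount of muscle in the sample.

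Among 13786 other protein-coding genes, those most like each member were largely genes of muscle. Myog was closest to Serinc2 (r = 0.96, and 0.82 with group means removed), Chrnd (0.96 and 0.88) and Chrng (0.95 and 0.74), the last 2 being the delta and the fetal gamma subunit of the acetylcholine receptor of muscle. Mymk was closest to Chrnd (0.95), Tnnt2 (0.95), the cardiac troponin T that developing skeletal muscle also makes, and Chrng (0.94). Myh3 was closest to Tnnt2 (0.95), Myl4 (0.95), an embryonic myosin light chain, and Chrnd (0.94). Mymx was closest to Ltbp2 (0.95, and 0.45 with group means removed), Chrng (0.95 and 0.69) and Serinc2 (0.95 and 0.63). Myf6 was closest to Pdlim3 (0.96), Dusp13b (0.96) and Trim63 (0.96), and Myod1 to Trim63 (0.95), a ubiquitin ligase of muscle, with Serinc2 (0.94) also among its closest. Pax7 was closest to Egln3 (0.95), Ankrd23 (0.95) and Serinc2 (0.95), Myf5 to Dusp13b (0.86), Mettl22 (0.86) and Bin1 (0.86), and Myh8 to Frem2 (0.85), Sema6c (0.83) and Atp1b4 (0.83). Each r in this paragraph was lower with group means removed, from 0.45 (Mymx and Ltbp2) to 0.92 (Myh3 and Myl4).

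The neighbouring steps of the pathway were read from 2 further lists. Of 16 genes of differentiating and fetal muscle, such as acetylcholine receptor subunits and desmin, 7 passed at 6-dpf (10.9% of all genes did) and were higher in P-Apex1KO, led by Jsrp1 (log2 fold change 1.00 ± 0.24, adjusted p = 0.0286), Des (0.97 ± 0.20, 0.0156) and Klhl41 (0.95 ± 0.25, 0.0409), which adult fibres also make. At 10-dpf, where 6.46% of all genes passed, 3 passed as higher, Des (1.55 ± 0.34), Chrna1 (1.35 ± 0.22) and Musk (1.27 ± 0.20), and 1 as lower, Mef2c (-0.38 ± 0.09), named after its value was seen. At 3- and 14-dpf 0 of the 16 passed in edgeR, 6 and 2 had an unadjusted p under 0.05, and DESeq2 called 0 and 2. In WT 2 of the 16 passed from 3- to 6-dpf, against 30.5% of all genes. These were Mef2c (0.89 ± 0.14) and Ncam1 (0.50 ± 0.13), which rose and which other cells of a callus make too. Of the 16 fitted values 13 lay below 0 there, with a median of -0.40. From 10- to 14-dpf in WT 1 of the 16 passed, against 11.1% of all genes. It was Tnnt2, which fell (-2.09 ± 0.53, adjusted p = 0.0243) as Myh3 did.

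Of 12 satellite cell and myoblast genes other than the members, those that passed at 10- and 14-dpf were lower in P-Apex1KO (2 and 3 of 11 tested, against 6.46% and 11.3% of all genes), while 6 and 5 of the 11 fitted values lay above 0. At 6-dpf 1 of the 12 passed, against 10.9% of all genes, namely Megf10, which was higher in P-Apex1KO (log2 fold change 0.76 ± 0.14). At 10-dpf 2 of 11 tested were lower, Cdh15 (-1.40 ± 0.23, adjusted p = 0.0182), which encodes M-cadherin, and Megf10 (-0.98 ± 0.13, 0.0103). At 14-dpf 3 of 11 were lower, Cdh15 (-2.62 ± 0.54, 0.0255), Calcr (-2.08 ± 0.32, 0.00704) and Six4 (-0.81 ± 0.13, 0.00930), while Pax7 itself did not pass. These 14-dpf values come from the fit with the sex term, which rests on 1 WT female. DESeq2 called 2 higher at 6-dpf, 2 lower at 10-dpf and 5 lower at 14-dpf. Calcr, the calcitonin receptor, is a gene of quiescent satellite cells and also of osteoclasts, and in WT it rose from 10- to 14-dpf (1.63 ± 0.34), as did Cdh15 (1.64 ± 0.37). In that course 4 of the 11 tested passed as higher and 1 as lower, against 11.1% of all genes. The fitted values went both ways, 6 above 0 and 5 below. The share of these changes that comes from cells other than muscle was not tested.

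Genes of other cell types also differed between genotypes. The share of all genes that passed was 0.0, 10.9, 6.46 and 11.3% at 3-, 6-, 10- and 14-dpf. Of 7 macrophage genes 5, 4 and 5 were higher in P-Apex1KO at 6-, 10- and 14-dpf, with 2 lower at 14-dpf, and their summed level was 1052 to 1208 CPM in P-Apex1KO against 576 to 777 CPM in WT at 6-dpf. The sums overlapped at 10-dpf (718 to 815 against 568 to 729 CPM) and at 14-dpf (910 to 1020 against 964 to 1135 CPM). Of 6 nerve and Schwann cell genes 5 were higher at 6-dpf (172 to 278 CPM against 78.4 to 126 CPM) and 3 of 5 tested at 10-dpf. Of 6 osteoblast genes 5, 4 and 3 were lower at the 3 later time points. Of 5 smooth muscle genes 0 passed between genotypes at any time in edgeR (0, 2, 1 and 3 had an unadjusted p under 0.05 and DESeq2 called 0, 1, 0 and 1 from 3- to 14-dpf). Of 6 endothelial genes 1 was lower at 10-dpf and 3 at 14-dpf. All 7 cartilage genes were lower at 6-dpf, and 6 were higher with 1 lower at 14-dpf. The 14-dpf counts of each of these lists come from the fit that rests on 1 WT female. The summed cartilage level overlapped there, at 3714 to 4276 CPM in P-Apex1KO and 2343 to 6363 CPM in WT. The part of these differences in the members' values was not tested.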

How the data were processed

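RNA from 30 mouse fracture calluses was sequenced as stranded total RNA after depletion of ribosomal RNA and beta globin transcripts. The values the authors deposited are raw counts per Ensembl gene for each sample, not normalized. By the study's methods and the submitters' processing notes, reads were demultiplexed with bcl2fastq, aligned to mm39 with STAR 2.7.0d and counted with featureCounts (uniquely mapped reads, reverse strand), and DESeq2 1.32.0 was used downstream. The bcl2fastq version is written as 2.20 in the processing notes and differently in the methods. Gene symbols, positions and exon lengths came from GENCODE M39 (GRCm39, the assembly of mm39), and 667 of the 55416 IDs had no entry there. Groups came from the sample labels. These give a sex to each replicate but do not say that each is a separate mouse, so p-values measure the spread between these samples, called mice here.

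Counts were analysed with edgeR 4.0.16 in R 4.3.3: filterByExpr, TMM scaling, glmQLFit with robust dispersion and glmQLFTest, with genotype group and sex as terms. Each time point was fitted alone for the genotypes and each pair of time points (3- and 6-dpf, 10- and 14-dpf) for the course and its interaction. P-values were adjusted by Benjamini-Hochberg across every gene of a fit, and 0.05 was the threshold. The standard error was taken as the absolute log2 fold change divided by the square root of F. The study used DESeq2, which was run as an alternative (DESeq2 1.42.0). Printed levels are CPM on 1 TMM scale over all 30 libraries. Log2 CPM used a prior count of 2, and levels between genes are per kilobase of exon. All 9 members passed the count filter in each fit except Mymx at 10-dpf. Counts were simulated with 200 genes changed 4-fold, of which 193 to 197 passed the filter. Of those that passed, the share recovered between genotypes was 81.1% at 3-dpf, 85.3% at 6-dpf, 88.3% at 10-dpf and 72.5% at 14-dpf. For the WT time courses it was 87.8% and 86.2%. Smaller changes and effects of sex were not simulated. Unchanged genes called numbered 8, 13, 11 and 22 beside 159, 168, 174 and 140 changed genes called between genotypes, and 3 and 12 beside 173 and 169 for the courses.

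The members and the gene lists were chosen with earlier results of these data known. By rule, all 9 members are covered in each comparison, those not singled out by their range of adjusted p. Other lists are given as counts, and by name at most the 3 called members of the satellite cell list and of the differentiating muscle list with the largest absolute log2 fold change. For likeness to a member, the 3 genes with the highest Pearson r over 30 mice were taken among protein-coding genes averaging 1 CPM or more. A gene among those of Myod1 is not reported here. Alternatives were another scaling, other filters, DESeq2, no sex term, a replicate block in place of the sex term, the mature muscle score as covariate, 1 model of all samples, and leaving out each mouse. Tables were built with Python 3.11.15 and pandas 2.3.3.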

Additional observations from a re-analysis of the deposited data

Results flagged for a closer look

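In groups of 4 or 5 mice, a mouse was singled out where its gap to the next value exceeded the critical share of the range (Dixon's 95% value). Of 45 combinations of a member and a group examined, 2 met this, and chance alone gives about 1 in 20. Myod1 in WT at 3-dpf stood at 31.6 CPM in replicate 2, against 17.8 to 19.1 CPM in the other 3 mice, with a gap of 0.906 of the range. The same mouse also held the most Pax7, Myf5, Myog, Mymk, Mymx, Myh3 and Myh8 of the WT mice at 3-dpf, but not the most Myf6. Its mature muscle score, 6.54, was the highest among them. Mymx in WT at 14-dpf stood at 0.0486 CPM in replicate 1, which is 1 count against 0 in the other 3 mice.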

How the results depend on the processing

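At 3-dpf DESeq2 called 1 member against 0 (0.428% of all genes) and leaving out 1 mouse gave 0 to 1. At 6-dpf scaling by library size alone called 1 against 0 (17.7% of all genes against 10.9%), and leaving out 1 mouse gave 0 to 1. At 10-dpf the 1 call, Myf6, became 0 without the sex term, with the replicate block, with the mature muscle score and with all samples in 1 model (4.10, 6.44, 0.0899 and 7.77% of all genes, against 6.46%), and 0 to 1 with 1 mouse left out. At 14-dpf the 0 calls became 2 by DESeq2, 5 without the sex term and 7 with all samples in 1 model (15.1, 37.2 and 30% of all genes, against 11.3%), and 0 to 2 with 1 mouse left out; the fit without WT replicate 1 could not be made, since sex and genotype then coincide. The 4 calls from 3- to 6-dpf in WT were 2 with the replicate block (20.7% of all genes against 30.5%), which lost Myog and Mymx, 3 with no filter on low counts (14.6% of all genes), which lost Mymx, and 2 to 5 with 1 mouse left out. Calls were gained too: with all mice Pax7 passed in 2 of 9 alternatives and Myf5 in 1 of 8, both as lower at 6-dpf. The 1 call in P-Apex1KO was 0 with the replicate block (1621 of 22264 genes called) or no filter on low counts (2217 of 36497), against 2867 of 20468, and 0 to 2 with 1 mouse left out. The 2 calls from 10- to 14-dpf in WT were 1 with the replicate block (1632 of 19705 genes called) or no filter (1861 of 35373), against 2190 of 19705, and 1 to 3 with 1 mouse left out. The causes were not tested. The replicate block took the place of the sex term, so its effect and the loss of that term cannot be told apart. The labels do not say what the replicate numbers mark. Deviations of same-numbered samples correlated at 0.06 to 0.39 at 3-dpf and -0.25 to 0.18 later, and not every sample correlated best with its own number, so the block was not used elsewhere.

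Of 89 fitted member values 8 were called, and 0 called values changed sign in any setting. Of all 89, 27 changed sign in some setting with all mice, 35 without 1 mouse and 41 in either. Among uncalled values whose log2 fold change is given, Pax7 at 6-dpf was -0.044 with the mature muscle score, and Myh8 from 10- to 14-dpf in P-Apex1KO was 0.40 without the sex term, 0.80 with the replicate block, 0.14 with all samples in 1 model and -0.74 to 0.96 with 1 mouse left out. Myh3 in that comparison was -1.40 to 0.43 with 1 mouse left out. Under scaling by library size alone the median log2 value of all genes was 0.20 at 6-dpf, 0.31 at 14-dpf, -0.27 from 3- to 6-dpf in WT, 0.10 from 10- to 14-dpf in P-Apex1KO and 0.25 and 0.16 for the interactions, against 0.01, 0.04, -0.03, 0.00, 0.02 and 0.00. It gave 2780 higher and 814 lower genes at 6-dpf against 1075 and 1137, 1878 and 766 at 14-dpf against 865 and 1424, and 1902 and 6984 from 3- to 6-dpf in WT against 3159 and 3085. Depth limits Mymx and Myf5 at 10- and 14-dpf and Pax7 at 10-dpf, where some libraries held 0 to 3 counts. Pax7 was also low at 14-dpf, with 4 to 10 counts in the WT libraries.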
